A study of Mus musculus with 2 samples.

Results

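The 10 genes described here belong to the prostaglandin pathway: Ptgs1 and Ptgs2, which encode the COX-1 and COX-2 enzymes, the downstream synthases Ptges, Ptges3, Hpgds and Tbxas1, the breakdown enzyme Hpgd, the prostaglandin transporter Slco2a1 and the PGE2 receptors Ptger2 (EP2) and Ptger4 (EP4). They were taken by symbol from the 31053 genes of the count matrices and followed in the 10363 cells that passed the filter, 5504 of them from control and 4859 from NK cell-depleted hosts. The tumors grew from Braf-mutant melanoma cells made deficient for Ptgs1 and Ptgs2 by CRISPR, and CD45+ leukocytes were sorted from them on day 4 in C57BL/6 hosts aged 8 weeks. Control hosts (control) were untreated, and NK cell-depleted hosts (NK_depleted) received the NK1.1 antibody PK136 (200 µg) and anti-asialo GM1 (30 µg), each on days 0 and 2. Tumors were pooled, so each group was 1 library, and parental Ptgs+/+ melanoma cells were added to both sorted samples. The genotype label of both samples reads wild-type tumor cells, while titles and series design name the knockout.

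Prostaglandins are lipid mediators made on demand. Phospholipase A2 frees arachidonic acid, the COX enzymes turn it into PGH2, and terminal synthases turn PGH2 into PGE2, PGD2 or thromboxane A2. PGE2 acts on nearby cells through EP receptors and is taken up and oxidized by the transporter and by 15-hydroxyprostaglandin dehydrogenase, the product of Hpgd. COX-1 is usually made steadily and COX-2 upon stimulation, above all in activated myeloid cells, stroma and many tumor cells.

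The bases before the annotated starts of the targeted genes are shown because their enzymes carry out the same reaction and their levels peaked in different monocyte/macrophage-like clusters, as described below. They are the 150 bases before each start on the plus strand of GRCm38.p6, from RefSeq, at chr2:36230276-36230425 for Ptgs1 and chr1:150099881-150100030 for Ptgs2. Capitals mark TTGCGCAA, the palindrome read by C/EBP factors.
Ptgs1: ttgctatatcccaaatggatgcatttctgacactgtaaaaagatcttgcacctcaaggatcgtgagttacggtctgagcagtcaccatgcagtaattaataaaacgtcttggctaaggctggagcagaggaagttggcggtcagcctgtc
Ptgs2: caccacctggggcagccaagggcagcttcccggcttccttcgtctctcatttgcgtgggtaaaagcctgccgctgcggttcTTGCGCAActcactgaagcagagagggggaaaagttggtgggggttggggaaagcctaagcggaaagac
In the 250 bases before the start, these letters began 69 bases before the start of Ptgs2 and were not found for Ptgs1. They were present in 0.164% of 32851 promoter windows of the same length. Other letters were searched on both strands like the palindrome and were in neither window. Bases from the annotated start onward were not searched, so letters that lie there would be missed. CGTCA, part of the cAMP response element, was in 17.8% of all windows. The E box CACGTG was in 6.02% of them. The TATA box TATAAA was in 12.4%. These letters were chosen from what is known of the Ptgs2 promoter and after the windows had been read, and a match says nothing about binding in these cells.

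Cells were clustered without the pathway genes and named from marker lists, with "-like" added. The libraries held 30836363 and 33055233 UMIs (unique transcript molecules; control first, as in all pairs of values below), with medians of 4318 and 5156 per cell, and 7 cell barcodes occurred in both. Levels are UMIs per 1000000 UMIs of a class or cluster (CPM). Intervals are 95% and cover counting error only. No test was made, since each group was 1 library, and an effect of NK cell depletion cannot be told apart from any other difference between these libraries. NK-like cells numbered 542 and 1. The melanoma-like cells, 174 and 314, lacked any UMI of the pigment cell markers Mlana, Pmel, Dct, Tyrp1, Tyr and Sox10. They were named from Hmga2, Cavin2, Serpinh1 and 5 further markers. The listed marker Mitf was lower in them than in other cells, at 7.73 against 49.0 CPM over both libraries. Melanoma-like cells made up 3.16% of the cells kept in control and 6.46% in NK_depleted. A CD45+ sort is meant to leave out tumor cells. The paper describes the added parental cells as a spike-in of a few percent of each sample. Added cells may thus form a large part of the melanoma-like cells, but how many of these were added ones was not known. In the eosinophil-like cells (16 and 70), the granule genes Prg2 and Epx were at 0.

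**Figure D1:**
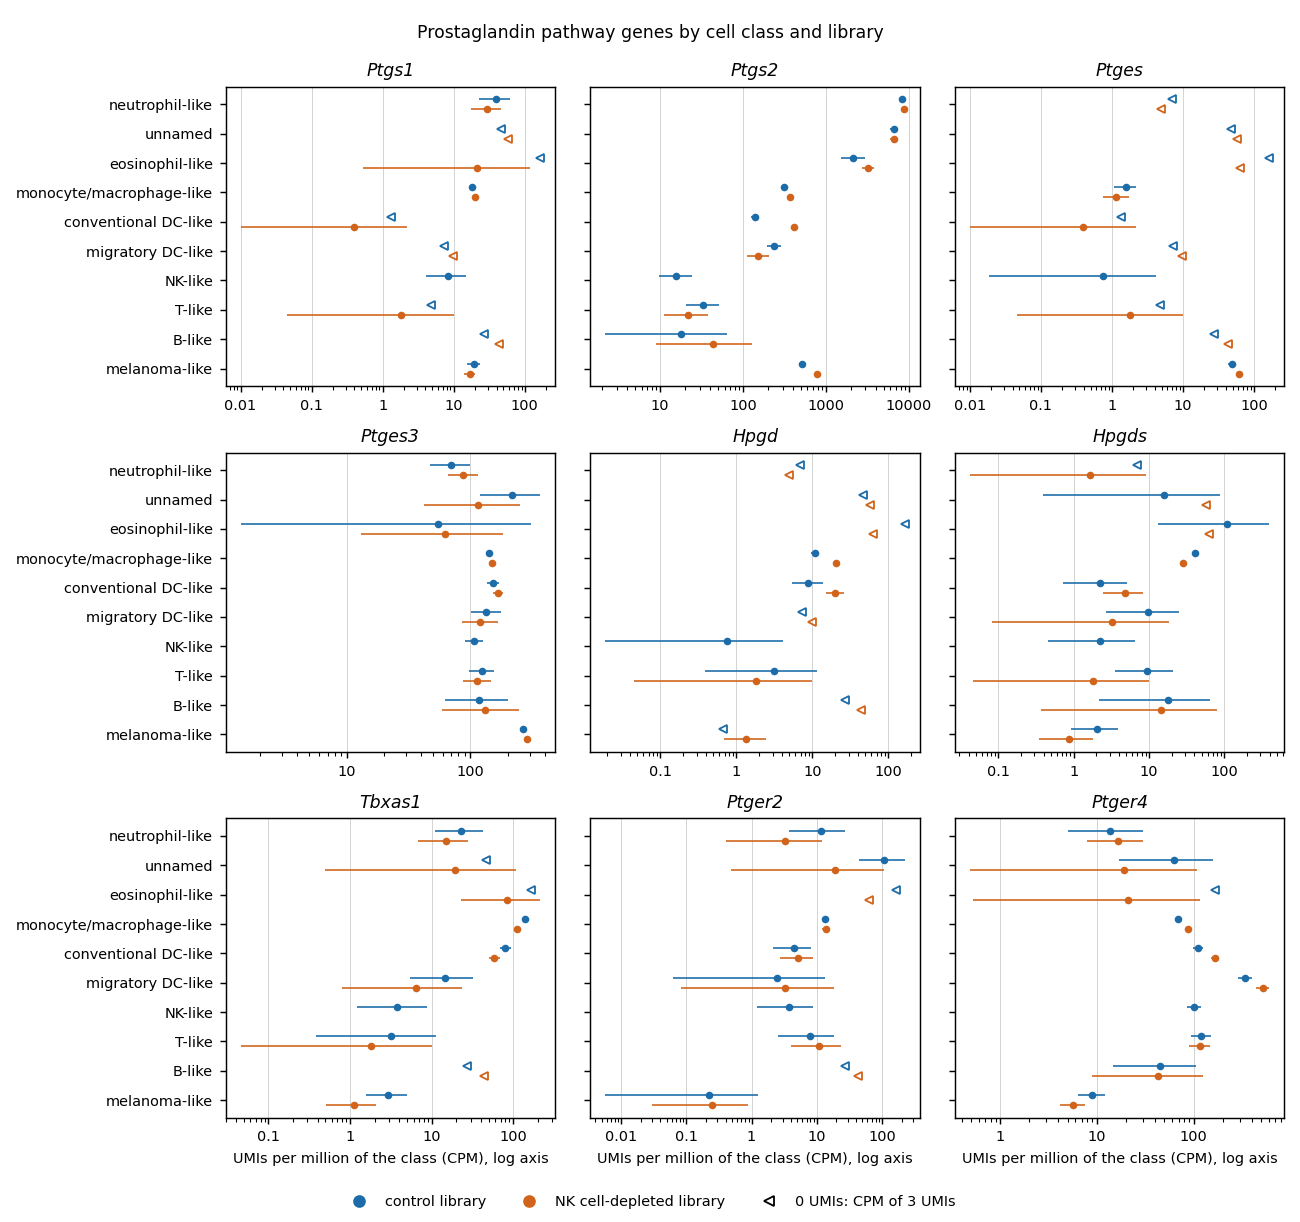
CPM of 9 genes (log axis) in each class in the control (blue) and NK cell-depleted (orange) library, with exact Poisson 95% intervals. Open triangles mark classes with 0 UMIs, drawn at the CPM of 3 UMIs, and the single NK-like cell of the NK cell-depleted library is not drawn. Ptgs2 was highest in neutrophil-like cells (8407 and 8737 CPM), Ptges in melanoma-like cells (49.5 and 61.8) and Ptger4 in migratory DC-like cells (342 and 521).

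The targeted genes were detected in melanoma-like cells of both libraries. Ptgs2 had 2309 UMIs there in control, a level of 519 CPM (498 to 541), and 6323 UMIs in NK_depleted, 781 CPM (762 to 801). Ptgs1 had 85 and 136 UMIs, 19.1 CPM (15.3 to 23.6) and 16.8 CPM (14.1 to 19.9). These values do not check the knockout, because a 3' tag outside the edited part is still counted and parental cells were added. The melanoma-like cells formed a deep cluster, with a median of 27916 UMIs per cell, and a shallow one of 100 cells with a median of 1356.5. In the deep cluster 95.1% and 98.9% of cells held a UMI of Ptgs2. All UMIs of Ptgs1 of the class lay in the deep cluster.

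Among leukocytes, Ptgs2 was densest in neutrophil-like cells. It reached 8407 CPM (3645 UMIs) in control and 8737 CPM (5308 UMIs) in NK_depleted, and 95.3% (92.6 to 97.2) and 96.9% (94.9 to 98.3) of these shallow cells, with medians of 1158 and 1298 UMIs, held at least 1. The 2 libraries differed there by no more than counting error, at a ratio of 0.962 (0.922 to 1.004). Next came an unnamed cluster of 90 cells led by Gm5483, Hcar2 and Cxcl3, with 6573 and 6603 CPM. Its best marker list was that of neutrophils, with 10 markers above their level in other cells but none among its 10 leading genes. At resolution 0.5 no cluster was unnamed, and the neutrophil-like cluster had 909 cells, against 819 at resolution 1. The unnamed cells may therefore be neutrophils too. Eosinophil-like cells were next in level, with 2143 CPM (39 UMIs) and 3242 CPM (155 UMIs). In control the order went on with melanoma-like, monocyte/macrophage-like (314 CPM), migratory DC-like (237) and conventional DC-like cells (141), each pair of neighbours with separate intervals. NK_depleted had the conventional DC-like cells (409 CPM) above the monocyte/macrophage-like (365) and migratory DC-like cells (153). T-like, B-like and NK-like cells were lowest, between 15.6 and 43.3 CPM, with overlapping intervals.

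To give a measure of neutrophil RNA in other cells, Ptgs2 was set beside S100a8 and S100a9, abundant neutrophil genes. At the ratio seen in neutrophil-like cells, their UMIs in other classes would bring along 5.63% and 5.21% of the Ptgs2 UMIs of monocyte/macrophage-like cells and 0.118% and 0.452% of those of melanoma-like cells. For NK-like cells of control the value was 69.0%, and only 1.66% (0.762 to 3.13) of these cells held a UMI, at a median depth of 2140. Of the 21 UMIs, 17 lay in 5 cells and 11 in a single one. The part of neutrophil RNA in these values was not tested.

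**Figure D2:**
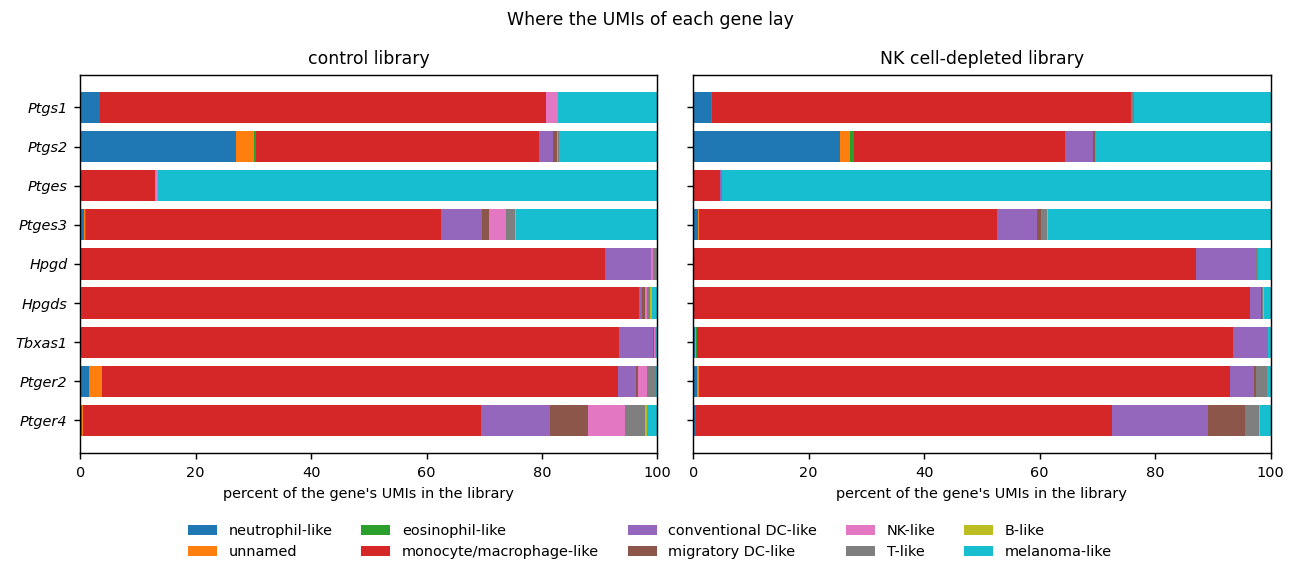
Percent of each gene's UMIs in the control (left) and NK cell-depleted (right) library that lay in each class, over all cells kept. Monocyte/macrophage-like cells held 93.1% and 92.9% of the Tbxas1 UMIs, while melanoma-like cells held 86.6% and 95.1% of those of Ptges.

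The largest number of Ptgs2 UMIs, in contrast to the highest density, lay in monocyte/macrophage-like cells. Monocyte/macrophage-like cells were 65.4% and 67.7% of all cells and held 49.1% (48.2 to 49.9) and 36.5% (35.8 to 37.1) of all Ptgs2 UMIs. Neutrophil-like cells held 27.0% and 25.5%, and melanoma-like cells 17.1% and 30.4%. A UMI of Ptgs2 was found in 30.8% and 37.2% of monocyte/macrophage-like cells, or in 22.8% and 26.7% after each cell of at least 2000 UMIs was thinned to 2000, with 332 and 242 shallower cells left out. The 5 cells with most UMIs held 3.31% and 3.45% of the class total, so the signal was spread over many cells.

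Among the 11 monocyte/macrophage-like clusters, Ptgs2 was highest in cluster 4, led by Pf4 and Arg1, at 526 CPM (502 to 551) and 653 CPM (618 to 690). In NK_depleted the level of cluster 8, led by Spint1 and Htra3, was 620 CPM, inside the interval of cluster 4. Ptgs2 was lowest in cluster 16, led by Ms4a7, Itga9 and Stab1, at 51.0 CPM (38.3 to 66.6) and 31.9 CPM (15.3 to 58.6), and in the shallow cluster 15, led by Retnla and Lyz1. The intervals of clusters 4 and 16 were far apart in both libraries.

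Ptgs1 had a different distribution. Monocyte/macrophage-like cells held 77.2% and 72.6% of its UMIs at a level of 18.1 CPM (16.3 to 19.999) and 20.01 CPM (18.1 to 22.0). Cluster 13, led by Retnla, Lyz1, Il6 and Aldh1a2, stood apart with 81.6 CPM (67.2 to 98.1) and 80.2 CPM (69.2 to 92.4), and a UMI in 42.3% and 42.1% of its cells. That cluster is deep, with a median of 10234 UMIs. The next deepest monocyte/macrophage-like cluster, cluster 7, had 12.8 and 22.0 CPM. Whether depth had a part in the level of cluster 13 was not tested. In neutrophil-like cells Ptgs1 gave 17 and 18 UMIs, 39.2 CPM (22.8 to 62.8) and 29.6 CPM (17.6 to 46.8). No UMI of Ptgs1 was seen in the migratory DC-like, B-like and unnamed cells of either library, and conventional DC-like cells had 0 and 1.

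The terminal synthases lay in different cells again. Ptges, the inducible PGE synthase that works with COX-2, was found almost only in melanoma-like cells, with 220 UMIs or 49.5 CPM (43.1 to 56.5) and 500 UMIs or 61.8 CPM (56.5 to 67.4). In monocyte/macrophage-like cells it had 33 and 24 UMIs, 1.56 CPM (1.08 to 2.19) and 1.15 CPM (0.740 to 1.72). Neutrophil-like cells, where Ptgs2 was highest, had 0 UMIs of Ptges in both libraries, which allows up to 6.92 and 4.94 CPM at 3 UMIs. A UMI of both Ptgs2 and Ptges occurred in 5 of 745 and 3 of 814 thinned monocyte/macrophage-like cells with a UMI of Ptgs2.

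Ptges3, a cochaperone also described as a constitutive PGE synthase, was present in every class, from 55.0 CPM in eosinophil-like cells to 266 CPM in melanoma-like cells in control and from 62.7 to 287 CPM in NK_depleted. Its reads may be shared with the copies Ptges3-ps and Ptges3l. Monocyte/macrophage-like cells had 141 and 150 CPM of it, and the leukocyte classes mostly overlapped within their intervals.

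Tbxas1, thromboxane A synthase, was a gene of monocyte/macrophage-like cells, at 138 CPM (133 to 143) and 111 CPM (106 to 115). Conventional DC-like cells came next in control, at 80.4 CPM (69.2 to 93.0). In NK_depleted they had 58.9 CPM (49.8 to 69.2), below the 83.7 CPM (22.8 to 214) of eosinophil-like cells, which rests on 4 UMIs. It was highest in cluster 13, the cluster with the highest level of Ptgs1, with 215 CPM (191 to 241) and 171 CPM (155 to 188), intervals that overlapped those of cluster 15, and lowest in cluster 5, led by Ace, Chil3 and Hp, with 47.9 CPM (35.3 to 63.6) and 32.0 CPM (24.8 to 40.7). NK-like, T-like and B-like cells had 0 to 5 UMIs each. Genes on the opposite strand overlap Tbxas1, Ptgs1, Hpgds, Ptger2, Ptger4 and Slco2a1. On the same strand, Gm13400 overlaps Ptges, Gm45540 overlaps Hpgd, Gm23010 overlaps Tbxas1 and Gm25842 overlaps Slco2a1. The part of these overlaps in the counts was not tested.

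Hpgds, the hematopoietic PGD2 synthase, lay in other monocyte/macrophage-like clusters. It was highest in cluster 16, where Ptgs2 was lowest, at 148 CPM (126 to 173) and 89.3 CPM (59.3 to 129), and in cluster 1, led by Ccl8, Gas6, Cbr2 and Lyve1, at 76.7 CPM (67.3 to 87.0) and 54.2 CPM (48.3 to 60.7). In clusters 5, 6 and 13 it had at most 10 UMIs in a library. Mast cells are a known source of Hpgds: 5 cells of control and 0 of NK_depleted carried the mast cell markers, and they held 5 UMIs. Over the 22 clusters, the genes whose level was most like that of Hpgds were Stab1 (Pearson r 0.907), Ms4a7 (0.870) and Abca1 (0.858), a description across clusters that share both libraries.

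Within monocyte/macrophage-like cells thinned to 2000 UMIs, Hpgds was found in 5.10% of cells with a UMI of Ptgs2 against 7.05% of those without in control, and in 2.09% against 5.06% in NK_depleted. For Tbxas1 the values were 18.5% against 23.3% and 13.5% against 18.1%. For Ptger4 they ran the other way, 14.6% against 12.4% and 18.2% against 13.9%. Cells are not replicates, so these shares were not tested.

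**Figure D3:**
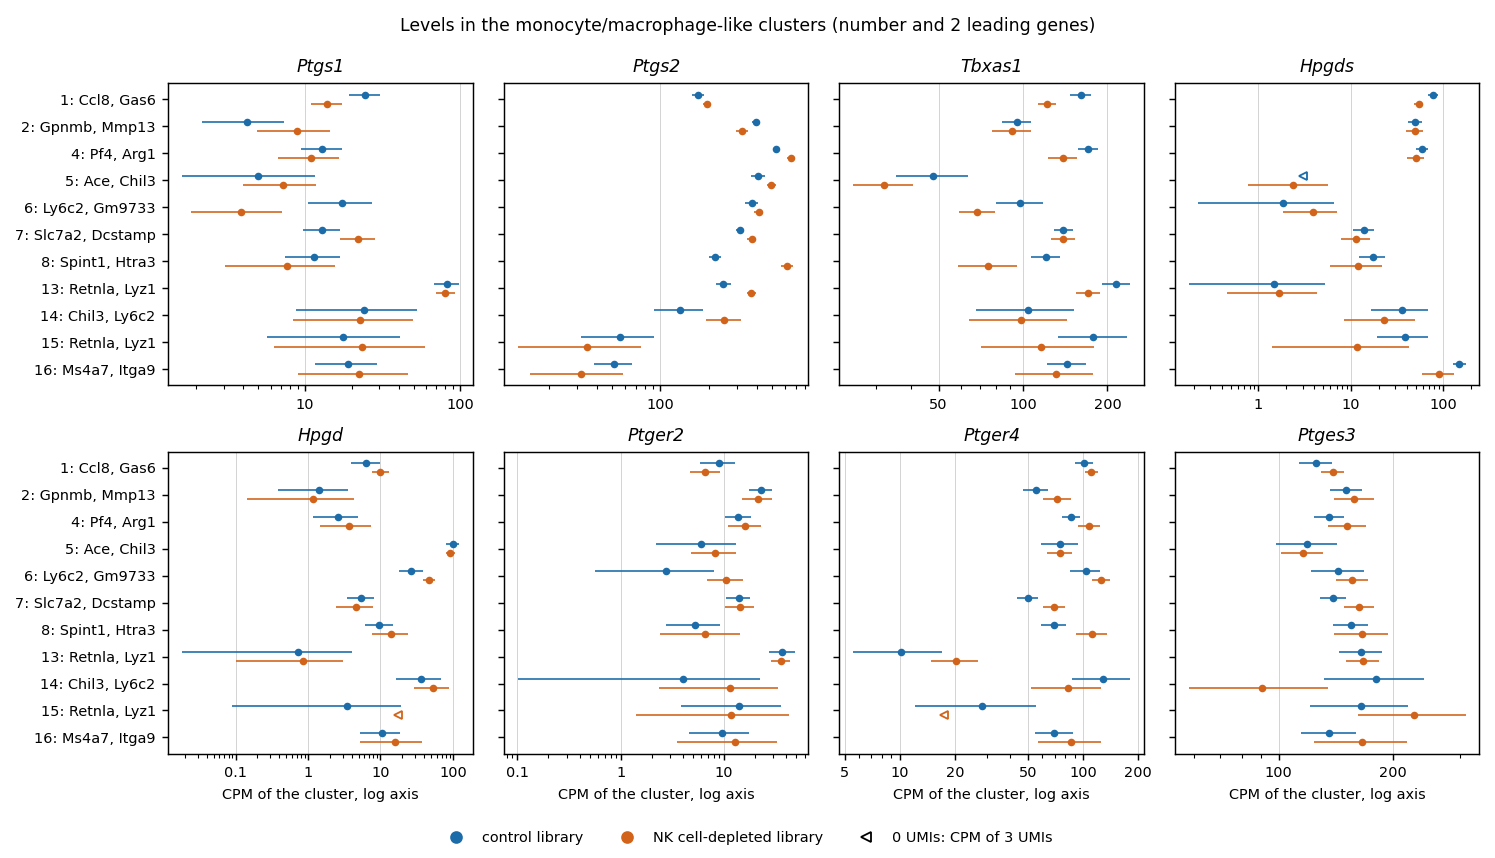
CPM of 8 genes (log axis) in the 11 monocyte/macrophage-like clusters, named by number and leading genes, in both libraries with exact Poisson 95% intervals. Open triangles mark 0 UMIs, drawn at the CPM of 3 UMIs. Ptgs1 peaked in cluster 13 (81.6 and 80.2 CPM), Hpgds in cluster 16 (148 and 89.3) and Hpgd in cluster 5 (99.9 and 92.3).

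Hpgd, which inactivates PGE2, was highest in cluster 5, led by Ace and Chil3. That cluster had 99.9 CPM (81.3 to 121) and 92.3 CPM (79.7 to 106), with a UMI in 22.0% and 23.8% of its cells. Cluster 6, led by Ly6c2, Gm9733 and Vcan, had 26.5 CPM (17.7 to 38.1) and 47.1 CPM (39.1 to 56.2), and the shallow cluster 14, led by Chil3 and Ly6c2, had 36.0 CPM (16.5 to 68.4) and 52.9 CPM (28.9 to 88.7) on 9 and 14 UMIs, with intervals that overlapped those of cluster 6. In cluster 13 there were 1 and 2 UMIs. Over all monocyte/macrophage-like cells the level was 10.8 CPM (9.49 to 12.3) and 20.5 CPM (18.6 to 22.6), and conventional DC-like cells had 20 and 51 UMIs, 8.84 and 20.2 CPM. Melanoma-like cells held 0 and 11 UMIs. Ms4a6c (r 0.852), Cyp27a1 (0.846) and Hps3 (0.821) were the genes most like Hpgd over the 22 clusters. Slco2a1, the uptake transporter, had 6 and 8 UMIs in all cells, too few for any statement about where it lay.

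Of the receptors, Ptger4 was highest in migratory DC-like cells, with 342 CPM (288 to 404) and 521 CPM (443 to 608) and a UMI in 69.1% and 72.7% of them. T-like cells had 120 and 117 CPM, conventional DC-like cells 111 and 167 CPM and monocyte/macrophage-like cells 69.5 and 88.2 CPM. NK-like cells of control had 136 UMIs of Ptger4, 101 CPM (85.0 to 120), and 5 UMIs of Ptger2, 3.73 CPM (1.21 to 8.70). A UMI of Ptger4 was found in 16.8% (13.7 to 20.2) of NK-like cells at a median of 2140 UMIs, and in 13.2% after thinning. In melanoma-like cells, far deeper at a median of 22267 UMIs in control, the share was 17.2% before and 4.32% after thinning. The thinned share of Ptger4 was thus higher in NK-like than in melanoma-like cells. It was 12.9% in monocyte/macrophage-like, 18.4% in conventional DC-like, 19.7% in T-like and 48.4% in migratory DC-like cells of control. Thinning left out 239 of 542 NK-like and 129 of 286 T-like cells of control. It left out 35 of 174 melanoma-like and 4 of 346 conventional DC-like cells, so the thinned shares of lymphocytes describe their deeper cells only. The UMIs of Ptger2 in NK-like cells were barely above the 3 that a count of 0 allows. NK-like, T-like and conventional DC-like cells of control had overlapping intervals for Ptger4.

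Monocyte/macrophage-like cells held 89.4% and 92.0% of the Ptger2 UMIs, at 13.5 CPM (12.0 to 15.2) and 13.8 CPM (12.3 to 15.5). The unnamed cluster, best matched by the neutrophil markers, had a higher level in control, 109 CPM (43.8 to 225) on 7 UMIs in 3 cells, and 1 UMI in NK_depleted. Among the monocyte/macrophage-like clusters Ptger2 was highest in cluster 13 with 36.4 CPM (27.0 to 48.0) and 35.3 CPM (28.1 to 43.6). Ptger4 was low in the same cluster, at 10.2 CPM (5.57 to 17.1) and 20.1 CPM (14.9 to 26.7), against 103 and 125 CPM in cluster 6. By CPM, cluster 13 thus ranked first among the monocyte/macrophage-like clusters for Ptgs1 and, with overlap, for Ptger2 and Tbxas1. For Ptger2 the overlap was with cluster 2, led by Gpnmb and Mmp13, at 22.7 and 21.2 CPM. Cluster 13 had low levels of Hpgds, Hpgd and Ptger4.

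The genes whose level over the 22 clusters was most like that of each remaining gene were found by Pearson r of log2(CPM + 1), with both libraries pooled. Ptgs2 was followed by Cd80 (0.882), a costimulatory ligand, Ppp1r2 (0.876) and Etf1 (0.858). For Ptgs1 they were Vps29 (0.789), 1110008F13Rik (0.768) and C4b (0.756), the weakest likeness of the 9 genes. Tbxas1 ran with the myeloid lectin gene Clec4a2 (0.941), with Tnfrsf21 (0.935) and with Stard8 (0.931). Ptges, a gene of melanoma-like cells here, ran with Cttn (0.938), 1110046J04Rik (0.938) and Vgll3 (0.936), and Ptges3 with Timm8a1 (0.907), Pla2g12a (0.906) and Hspb11 (0.893). Of the receptors, Ptger2 was most like Pde8a (0.901), a cAMP phosphodiesterase, Ankrd37 (0.849) and Tlr6 (0.816), and Ptger4 like Commd4 (0.871), Pik3r1 (0.863) and Tap1 (0.861). The clusters share their libraries and differ in depth, so these values are descriptions.

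The comparison of the 2 libraries asks whether the levels of these transcripts differed between them. Prostaglandins themselves were not measured in these libraries. In monocyte/macrophage-like cells, 1 of the 9 genes with at least 20 UMIs (Hpgd) differed by more than 1.5-fold, while 12.0% of all 12013 genes with that many UMIs did. Their median log2 ratio of control over NK_depleted was -0.08, beside -0.01 for all genes. Hpgd was lower in control, at a ratio of 0.528 (0.448 to 0.621). The clusters differed in cell number: cluster 5 had 250 cells in control and 458 in NK_depleted and cluster 6 had 208 and 471. Within cluster 5 the ratio was 1.08 (0.841 to 1.39) and within cluster 6 it was 0.563 (0.362 to 0.850). Of the 6 clusters with at least 20 UMIs of Hpgd, 4 were lower in control, 1 of them beyond counting error, and 2 were higher. When clusters were given equal weights in the libraries, the log2 ratio of Hpgd was -0.23 in place of -0.92. The part of the cluster sizes in this difference was not tested.

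The synthases of thromboxane and PGD2 were higher in control, by less than 1.5-fold. Tbxas1 had a ratio of 1.248 (1.18 to 1.32) and was higher in control in 11 of 11 clusters, in 6 of them beyond counting error, with ratios from 1.003 to 1.61. Hpgds had a ratio of 1.47 (1.32 to 1.63) and was higher in 6 of the 6 clusters with at least 20 UMIs, in 2 of them beyond counting error. Ptgs2 and Ptger4 were lower in control, at 0.859 (0.831 to 0.887) and 0.788 (0.736 to 0.845). For Ptgs2 8 of 11 clusters were lower, 7 beyond counting error, most so cluster 8, led by Spint1 and Htra3, with 220 against 620 CPM, while cluster 2 was higher in control (398 against 325 CPM). For Ptger4 8 of 10 clusters were lower, 5 beyond counting error. The intervals of Ptgs1, at 0.904 (0.785 to 1.04), Ptger2, at 0.981 (0.830 to 1.16), and Ptges, at 1.35 (0.776 to 2.39), held 1.

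**Figure D4:**
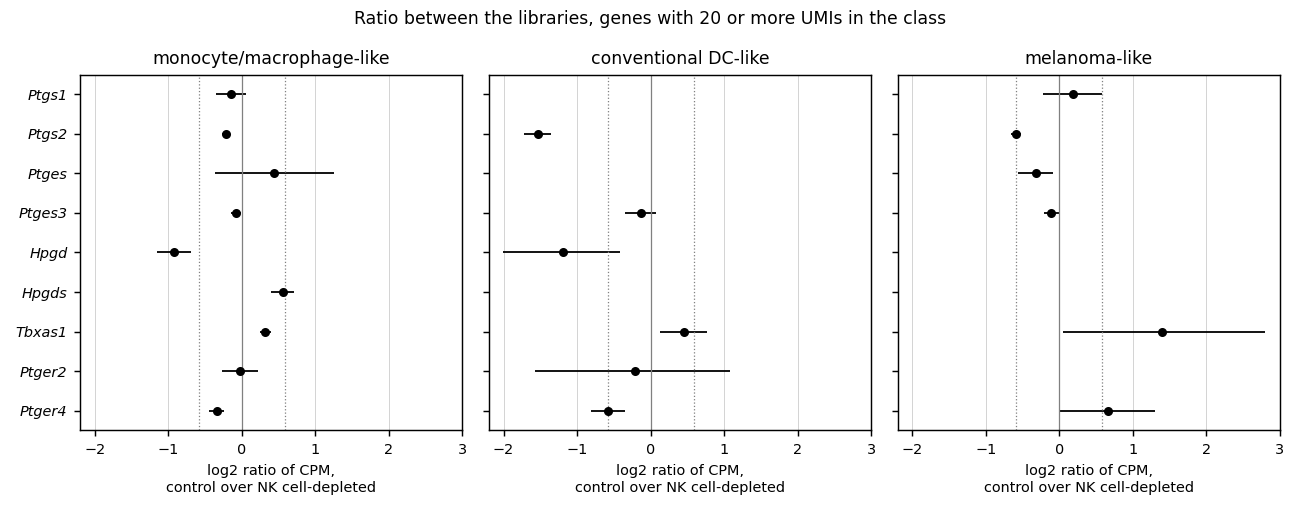
Log2 ratio of CPM, control over NK cell-depleted, in 3 classes for genes with at least 20 UMIs in the class, with exact 95% counting intervals. Dotted lines mark 1.5-fold. Points left of 0 were higher in the NK cell-depleted library, such as Ptgs2 in conventional DC-like cells (-1.54).

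In conventional DC-like cells, 2 of 6 genes differed by more than 1.5-fold (Ptgs2 and Hpgd), beside 16.1% of 9278 genes. Ptgs2 had 141 CPM (126 to 157) in control and 409 CPM (385 to 435) in NK_depleted, a ratio of 0.344 (0.303 to 0.391). A UMI was found in 22.0% and 32.5% of cells, or in 12.3% and 24.9% after thinning. The class joined cluster 9, led by Cd209a and Flt3, and cluster 17, led by Cdh1 and Plet1. Both were lower in control, with ratios of 0.332 (0.283 to 0.388) and 0.440 (0.344 to 0.562). The 5 cells with most UMIs held 25.7% and 20.1% of the total. S100a8 and S100a9 UMIs would bring along 22.8% of the Ptgs2 UMIs in control and 2.26% in NK_depleted. Hpgd had a ratio of 0.438 (0.247 to 0.748) on 20 and 51 UMIs, and Ptger4 of 0.667 (0.569 to 0.782), with 111 and 167 CPM.

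In migratory DC-like cells, 68 and 55 in number, Ptger4 was lower in control at 0.657 (0.520 to 0.830). Ptgs2 was higher in control at 1.55 (1.08 to 2.25), but 5 cells held 76.3% of its 97 UMIs and 83.0% of its 47 UMIs. T-like cells had 76 and 65 UMIs of Ptger4, a ratio of 1.03 (0.728 to 1.45).

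In melanoma-like cells, 3 of 6 genes differed by more than 1.5-fold, beside 10.8% of 10869 genes: Ptgs2 at 0.665 (0.633 to 0.697), Tbxas1 at 2.63 (1.04 to 6.97) on 13 and 9 UMIs, and Ptger4 at 1.58 (1.01 to 2.47) on 40 and 46 UMIs. Ptges had a ratio of 0.801 (0.680 to 0.940). The median log2 ratio of all genes in this class was -0.17, and Ptgs2 relative to it was -0.42, within 1.5-fold, as it was after thinning (-0.45) and with at least 1000 UMIs and at most 5% mt- UMIs per cell (-0.29). With the study's upper limits, which lie below the median depth of the deep cluster, the log2 ratio without centring was -1.62. The mix of knockout and added parental cells was not known for either library, so their part in these ratios was not tested.

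Other genes of the pathway were read from a fixed list of 18. In monocyte/macrophage-like cells 10 of them had at least 20 UMIs and 2 differed by more than 1.5-fold, beside the 12.0% of all genes, both higher in control: the carbonyl reductases Cbr1, at 8.24 against 5.29 CPM, with a ratio of 1.56 (1.22 to 2.00), and Cbr3, at 5.87 against 3.61 CPM, with 1.63 (1.21 to 2.20). Pla2g4a, the cytosolic phospholipase A2 that feeds the pathway, was highest in melanoma-like cells at 320 and 407 CPM and had 56.0 and 53.5 CPM in monocyte/macrophage-like cells. Akr1b3, an aldose reductase with PGF synthase activity, was at 100.4 to 138 CPM in monocyte/macrophage-like, T-like and NK-like cells. Conventional DC-like cells had similar levels of it, 99.4 and 104 CPM. Fam213b and Ptgr1 were mainly monocyte/macrophage-like genes, with 39.1 and 38.7 CPM and with 43.8 and 35.2 CPM. Ptges2, Ptgr2 and the efflux pump Abcc4 were below 40 CPM in the classes with at least 20 UMIs of them.

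Among the other receptors, Ptgir, the prostacyclin receptor, had 17.4 and 24.9 CPM in monocyte/macrophage-like cells, a ratio of 0.698 (0.609 to 0.799), and 36.4 and 39.7 CPM in T-like cells. Tbxa2r, the thromboxane receptor, had 11 and 10 UMIs in all cells, 5 and 8 of them in T-like cells. Ptger1, Ptger3, Ptgdr, Ptgdr2 and Ptgfr, the receptors for PGE2, PGD2 and PGF2, had 0 to 12 UMIs per library, as had the synthases Ptgds and Ptgis.

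In conventional DC-like cells 3 of the 8 listed genes with at least 20 UMIs differed by more than 1.5-fold, beside 16.1% of all genes, all higher in control: Ptges2, at 1.96 (0.919 to 4.36), Ptgr1, which reduces oxidized prostaglandins, at 2.75 (1.40 to 5.71), and Ptgr2, at 1.54 (0.953 to 2.50). Only the interval of Ptgr1 lay above 1. In melanoma-like cells 2 of 8 did, beside 10.8% of all genes, Ptgr1 at 0.470 (0.187 to 1.04) and Cbr3 at 1.82 (0.873 to 3.79), and both intervals held 1.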

How the data were processed

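For each of 2 libraries (CD45+ cells, 10x Genomics 3' chemistry) the authors deposited a matrix of UMI counts, made by them with Cell Ranger (3.0.2 in the file headers, another release in the study's methods) on mm10 per the submitters' notes. Cells with at least 500 UMIs, 200 genes and at most 10% mt- UMIs were kept, without the study's upper limits (15000 UMIs, 4000 genes), which would remove 212 and 353 cells. The 2000 genes that varied most in log2(CPM + 1), pathway genes left out, gave 15 principal components and a graph of 20 neighbours for Leiden clustering at resolution 1 (leidenalg 0.10.2, igraph 0.11.9, scikit-learn 1.9.0, scipy 1.17.1). It gave 22 clusters, named from marker lists by thresholds set after they were seen, so values that differ from the study's may reflect the new names. Scrublet (scanpy 1.11.5) marked 1.20% and 0.123% of cells, which is not relied on. Possible doublets were kept.

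UMIs were summed per class and library. Levels have exact Poisson intervals, shares Clopper-Pearson intervals and ratios exact conditional binomial intervals, all 95%. A count of 0 allows 3 UMIs. Log2 ratios add 0.5 UMI to each sum. The ratio and its interval were run on simulated Poisson counts with known folds. These follow the model that the interval assumes, without variation between libraries or cells, so the run says nothing about such variation. There is no p-value, as each group has 1 library. Named genes were the 10 listed, the 18 other pathway genes with at least 20 UMIs, and the 3 genes most like each listed gene by Pearson r over clusters. Members, lists and classes were chosen with earlier results of these data known. Gene overlaps came from GENCODE M21 (GRCm38). The deposited table of normalized values was not used.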

Additional observations from a re-analysis of the deposited data

Results flagged for a closer look

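The difference between the libraries did not go the same way in all classes for Ptgs2 and Ptger4, with intervals on opposite sides of 1. For Ptgs2 the ratio of control over NK_depleted was 1.55 in migratory DC-like cells, where a few cells held most UMIs. It was 0.859 in monocyte/macrophage-like, 0.344 in conventional DC-like, 0.661 in eosinophil-like and 0.665 in melanoma-like cells. In eosinophil-like cells 5 cells held 89.7% of the 39 UMIs of control and 43.9% of the 155 of NK_depleted. In that class 67.0% of the 533 genes with at least 20 UMIs differed by more than 1.5-fold. For Ptger4 the ratio was 1.58 in melanoma-like cells and 0.788 in monocyte/macrophage-like, 0.667 in conventional DC-like and 0.657 in migratory DC-like cells. With 1 library per group, these differences between classes were not tested.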

How the results depend on the processing

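No paired analysis was possible because each group has 1 library. Of 115 alternative values of the main results, 94 moved by less than the counting interval, 21 moved beyond it and 0 reversed. Of 88 values of the other results, 75 stayed within it, 12 moved and 1 reversed, counting as reversed only a change of sign where the counting interval lay on one side of 0: the log2 ratio of Ptges in melanoma-like cells was 0.072 with the study's upper limits, against -0.32. Another 8 log2 ratios changed sign from values whose intervals held 0. With clusters at equal weights, the log2 ratios in monocyte/macrophage-like cells were 0.14 for Ptgs1, against -0.15, and -0.29 for Ptgs2, -0.23 for Hpgd, 0.37 for Hpgds and -0.23 for Ptger4. The count of genes past 1.5-fold there was 2 with no minimum of UMIs (30.0% of all genes with a UMI), where Slco2a1 joined on 3 UMIs, and 4 at a fold 25% above 1 (32.8% of all genes). The upper limit on UMIs lies below the median of the deep melanoma-like cluster. With them Ptgs1 had 0 CPM in control and 26.3 CPM in NK_depleted (log2 ratio -3.08, which depends on the 0.5 UMI added) and Ptgs2 had 283 and 880 CPM (-1.62). With at least 1000 UMIs and at most 5% mt- UMIs, chosen for this class after seeing the data, melanoma-like cells had 14.5 and 10.3 CPM of Ptgs1 and 470 and 577 CPM of Ptgs2 (-0.29). In 2 further alternatives chosen after seeing the data, the log2 ratio of Ptgs2 there was -0.42 when centred on all genes and -0.45 after thinning. In conventional DC-like cells, also an alternative added after seeing the data, it was -1.29 with the stricter cells, and Ptger4 in NK-like cells then had 125 CPM. The causes of these shifts were not tested. Without the cluster led by Cdh1, Tbxas1 in conventional DC-like cells had a log2 ratio of 0.13 in place of 0.45. Slco2a1 had too few UMIs for any alternative. Depth limits Ptges, Hpgds and Hpgd outside their leading classes, where 0 to a few UMIs cannot show a difference, and the shallow neutrophil-like and eosinophil-like cells, of which thinning to 2000 UMIs keeps 4 and 17 and 2 and 0.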
